A study of Mus musculus with 23 samples.

Results

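The immunity-related GTPases (IRGs) of the mouse are a family of interferon-induced proteins of cell-autonomous immunity. Expression of 10 named members was followed in MC38 tumors: Irgm1, Irgm2, Igtp, Iigp1, Tgtp1, Tgtp2, Ifi47, Gm12250, 9930111J21Rik1 and Gm4951. They were taken by gene symbol, with earlier results of these data known, and all 10 were found among the 26869 genes of the table. RNA was sequenced from 23 bulk tumors grown from MC38, a colon carcinoma cell line of C57BL/6 origin. The hosts were female F1 mice of 8 to 12 weeks, from C57BL/6J crossed with 6 Collaborative Cross (CC) lines, so that every host carried 1 C57BL/6J genome beside a CC genome. The study's text classes 3 of these F1 lines as responders to anti-PD-1 (R: CC001F1, CC002F1 and CC075F1, from CC001/UncJ, CC002/UncJ and CC075/UncJ) and 3 as non-responders (NR: CC036F1, CC079F1 and CC080F1, from CC036/UncJ, CC079/TauUncJ and CC080/TauUncJ). Mice received MC38 cells under the skin, then a single 200 µg dose of isotype control or anti-PD-1 antibody (aPD1) at a tumor size of 75 to 110 mm3, and the tumor was taken 48 h later. Each line had 2 isotype and 2 aPD1 tumors, except CC080F1 with 1 aPD1 tumor, which gave 6 R isotype, 6 R aPD1, 6 NR isotype and 5 NR aPD1 tumors.

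IRG proteins act on the membrane vacuoles in which intracellular parasites and bacteria such as Toxoplasma and Chlamydia live. The regulators Irgm1, Irgm2 and Igtp (the GMS proteins; Igtp is also called Irgm3) sit on the cell's own membranes and keep the effectors inactive there. The effectors (the GKS proteins), among them Iigp1, the closely related pair Tgtp1 and Tgtp2, Ifi47 and Gm12250 (listed in RefSeq with the synonym Irgb10), load onto the vacuole and help to break it open, a step that uses the proteins which conjugate ATG8. Interferon-gamma is the main inducer of the family, and the promoters of genes it induces commonly carry GAS and ISRE-type elements. IRG genes lie in clusters and are known to differ in sequence and copy number between mouse strains.

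The promoters are shown first because 4 of the members carry one arrangement of motif letters that almost no other mouse promoter holds. The promoters of Iigp1 and Gm4951 were not examined, so the counts below leave these members out. RefSeq promoter sequences (GRCm38.p6, 250 bases before to 50 bases after each annotated start) were taken for the other 8 of the 10 members. They were searched on both strands for the ISRE-like letters GAAANNGAAA and the GAS-like letters TTCNNNGAA. An ISRE-like match was found in 7 of the 8 promoters and a GAS-like match in 5 of 8, against 3.44% and 8.30% of all 32851 promoters in the table. In Irgm2, Igtp, Tgtp1 and Tgtp2 the GAS-like match was followed after a gap of 2 bases by the ISRE-like match, which spells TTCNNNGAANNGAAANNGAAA. These joint letters, which were searched after the sequences had been seen, occurred in 5 of the 32851 promoters (0.0152%), and the fifth was that of Gm12185, a relative in the same gene cluster. The windows of 80 bases below run 5′ to 3′ on the strand of each gene, and capitals mark the motif matches.
Irgm2 (chr11:58214878-58214957, plus strand): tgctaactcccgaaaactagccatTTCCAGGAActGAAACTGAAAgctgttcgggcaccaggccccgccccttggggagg
Igtp (chr11:58199487-58199566, plus strand): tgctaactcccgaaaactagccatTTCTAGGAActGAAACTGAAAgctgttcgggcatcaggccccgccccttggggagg
Tgtp1 (chr11:48992279-48992358, minus strand): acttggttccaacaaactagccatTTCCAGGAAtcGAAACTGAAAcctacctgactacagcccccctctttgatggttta
Tgtp2 (chr11:49064238-49064317, minus strand): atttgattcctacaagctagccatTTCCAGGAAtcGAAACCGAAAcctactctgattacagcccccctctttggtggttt
Gm12185 (chr11:48927213-48927292, minus strand): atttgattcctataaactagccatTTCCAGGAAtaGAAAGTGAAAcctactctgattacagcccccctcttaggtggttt
The windows of Irgm2 and Igtp were identical at 78 of 80 bases, and those of Tgtp2 and Gm12185 at 74 of 80. Tgtp1 and Tgtp2, whose transcripts are near-identical, matched at 56 of 80 bases, and Igtp and Tgtp2 at 49, compared position by position with no gaps allowed, so that a shift of 1 base past the motif counts as mismatches. The other 4 promoters are shown for contrast.
Irgm1 (chr11:48871403-48871482, minus strand): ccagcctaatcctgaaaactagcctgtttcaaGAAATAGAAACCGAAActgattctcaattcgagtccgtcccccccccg
Gm12250 (chr11:58183739-58183818, plus strand): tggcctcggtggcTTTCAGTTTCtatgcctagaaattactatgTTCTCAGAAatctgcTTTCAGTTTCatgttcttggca
9930111J21Rik1 (chr11:48979332-48979411, minus strand): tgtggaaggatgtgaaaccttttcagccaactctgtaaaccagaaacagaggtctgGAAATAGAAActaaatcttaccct
Ifi47 (chr11:49076507-49076586, plus strand): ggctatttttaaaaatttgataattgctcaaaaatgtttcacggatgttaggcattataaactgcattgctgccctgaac
Irgm1 held 2 overlapping ISRE-like matches and no GAS-like match. Gm12250 held 2 ISRE-like matches on the other strand with a GAS-like match between them. The single ISRE-like match of 9930111J21Rik1 lay after its annotated start, and the Ifi47 promoter held neither set of letters. A match describes letters in this window and does not show that a factor binds there.

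**Figure D1:**
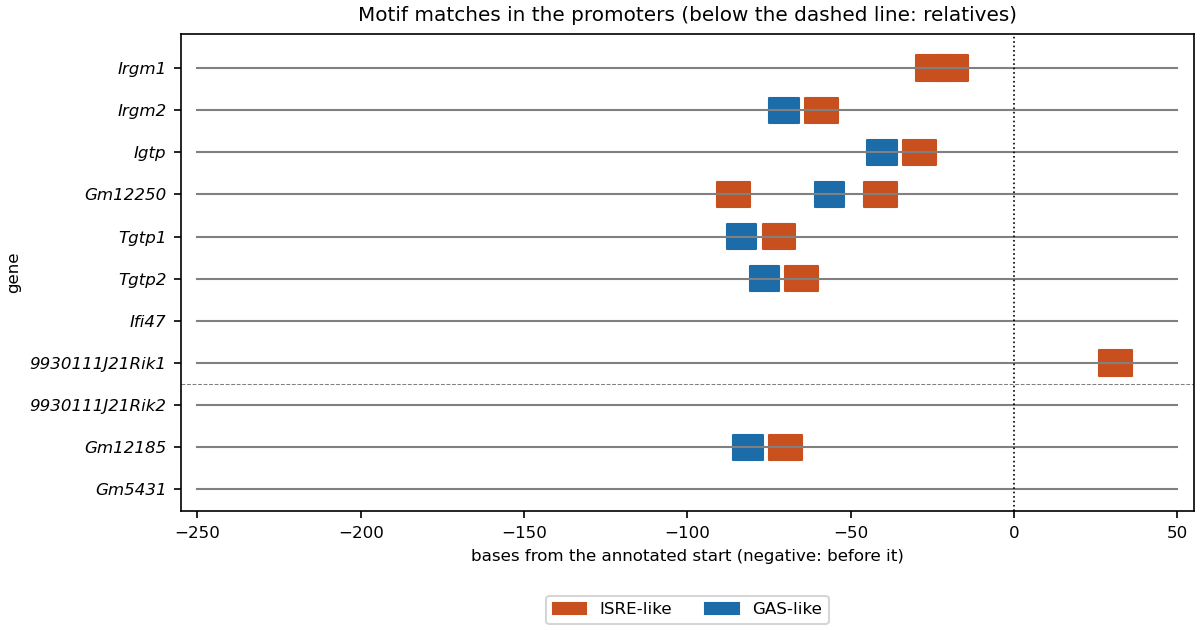
Motif matches in the promoters of 8 members and, below the dashed line, 3 relatives, by distance in bases from the annotated start (horizontal axis). Blue boxes are GAS-like and orange boxes ISRE-like matches; in Irgm2, Igtp, Tgtp1, Tgtp2 and Gm12185 the boxes lie side by side in the same order.

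All members apart from Iigp1 and Gm4951 lie on chromosome 11, in 2 clusters (coordinates of GRCm38, GENCODE vM21). Irgm1 (chr11:48861968-48871683), 9930111J21Rik1 (chr11:48946150-48979398), Tgtp1 (chr11:48985327-48994172), Tgtp2 (chr11:49057194-49064206) and Ifi47 (chr11:49076587-49096974) form the first. Gm12250 (chr11:58187739-58189012), Igtp (chr11:58199556-58207591) and Irgm2 (chr11:58199618-58222782) form the second, and the annotated spans of Igtp and Irgm2 overlap. Gm12250 is a processed pseudogene of 1 exon in that annotation and a protein-coding gene in RefSeq, whose start and promoter lie upstream of that exon. The RefSeq promoters of Irgm2 (chr11:58214727-58215026) and the relative Gm12185 (chr11:48927133-48927432) lie well inside the GENCODE spans of these genes. Their counted transcripts need not all start at the promoters shown. Iigp1 and Gm4951 lie on chromosome 18.

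Near-identical members limit what a single gene's value means. Of the 100-base stretches in Tgtp1 transcripts 73.1% also occurred in another gene, most of them in Tgtp2, and for Tgtp2 the share was 76.8%. For 9930111J21Rik1 the share was 70.5%, mostly with its neighbor 9930111J21Rik2. It was 5.16% for Igtp and 3.01% for Irgm2, with each other, 0.561% for Ifi47, and 0% for Irgm1, Iigp1, Gm12250 and Gm4951. The authors' counting split shared reads between such genes, so the values of Tgtp1, Tgtp2 and 9930111J21Rik1 are less certain than their model errors state. Per kilobase of exon, the mean level over all tumors was highest for Igtp, at 2180 normalized counts per kb, followed by Tgtp2 at 1103, Ifi47 at 1076, Irgm1 at 941, Iigp1 at 920 and Irgm2 at 897. It was 562 for Gm12250, 551 for Tgtp1, 306 for Gm4951 and 127 for 9930111J21Rik1. Every member was counted in every tumor, and the lowest single value was 213.8 normalized counts, for Gm12250 in a CC079F1 isotype tumor.

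**Figure D2:**
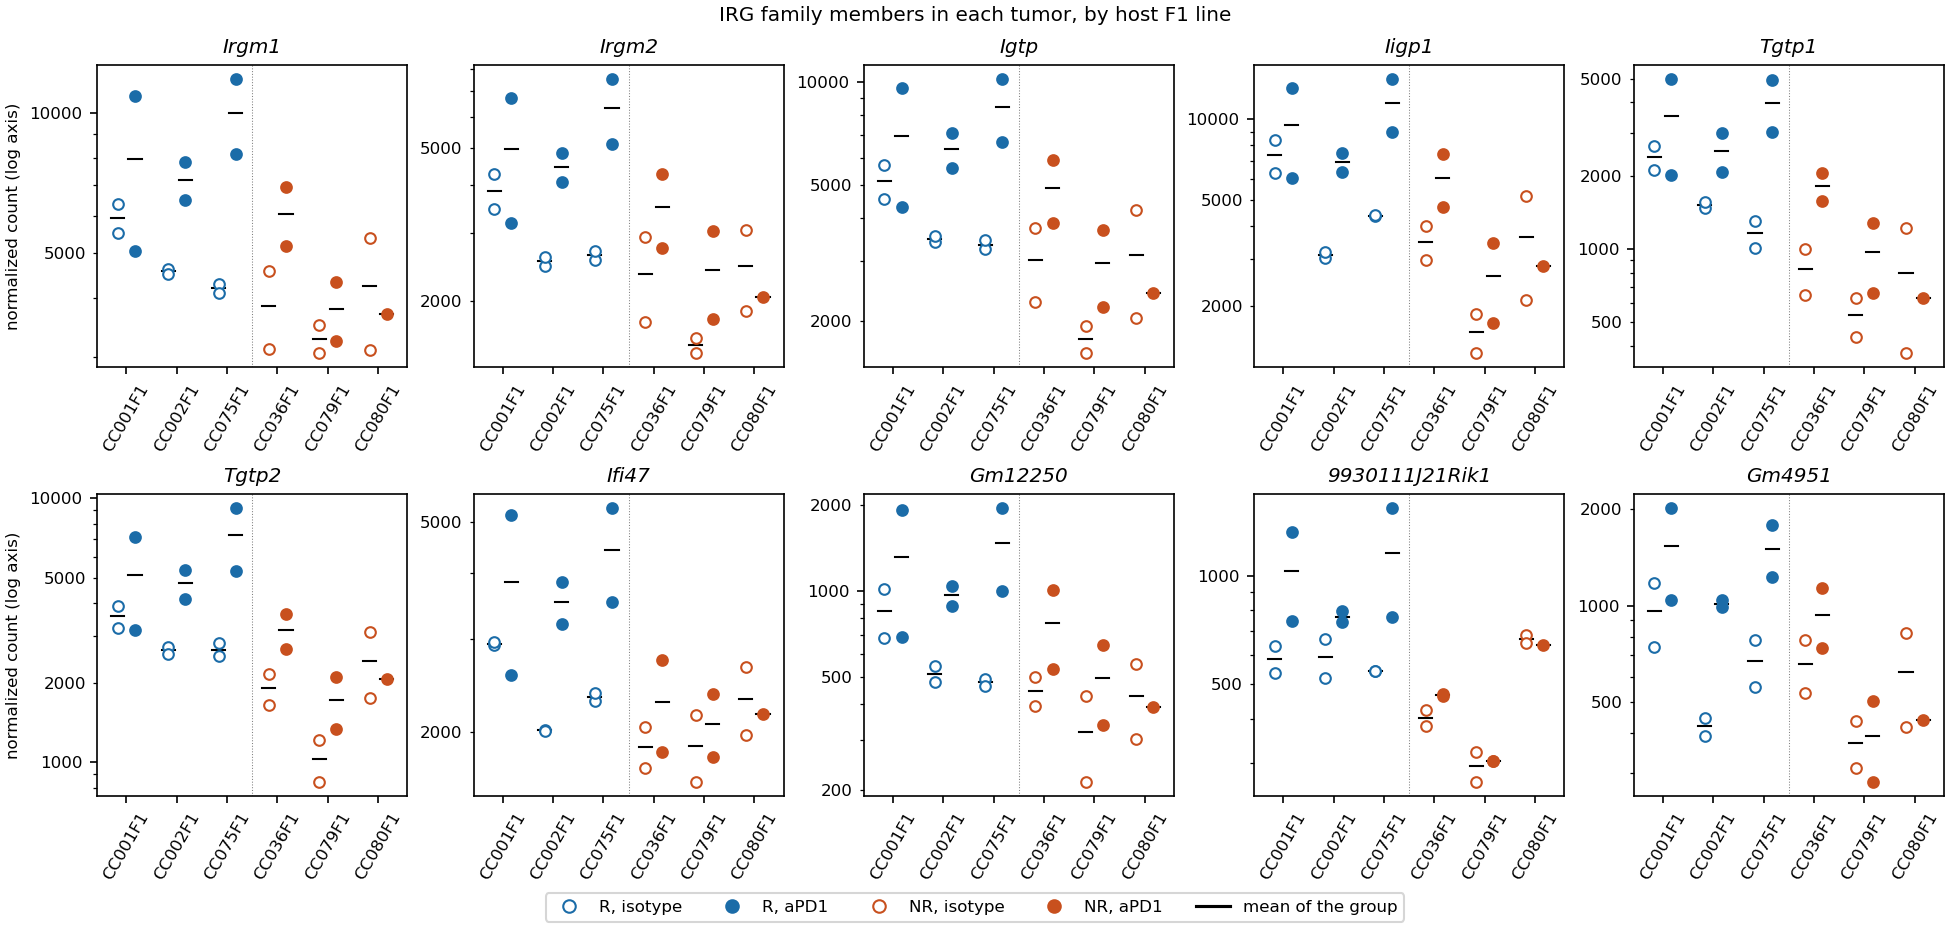
Normalized counts (log axis) of the 10 members in each of the 23 tumors, by host line (R lines left of the dotted line, NR lines right). Open points are isotype and filled points aPD1 tumors, and a black bar is the arithmetic mean of a line and antibody group; the highest points of every panel are R tumors given aPD1, and CC079F1 tumors are among the lowest.

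Values below are counts normalized for depth (DESeq2 median-of-ratios size factors over all 23 tumors). Library totals ran from 14494014 to 71868253 counts, and 6 tumors (2 R and 4 NR) were shallow, with at most 18354585 counts. Log2 differences, their standard errors (SE) and adjusted p-values are from DESeq2 fits across all genes, and a gene was called at a Benjamini-Hochberg adjusted p under 0.05. In bulk tumors, fewer cells of a type and less RNA per cell cannot be told apart, and RNA of F1 host cells was not separated from RNA of MC38 cells.

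The first question was whether IRG levels differed between R and NR hosts. Over both antibodies all 10 members were higher in R tumors, with log2 differences from 0.54 for Ifi47 to 1.32 for Tgtp1 and a median of 0.76. All 10 were called, where 7.66% of the 17643 genes tested were called higher. The median over all genes tested was -0.00042. Of the regulators, Igtp was 1.73-fold higher in R tumors (log2 0.79, SE 0.20, adjusted p = 0.00213), Irgm2 1.63-fold (log2 0.70, SE 0.18, adjusted p = 0.00228) and Irgm1 1.51-fold (log2 0.59, SE 0.16, adjusted p = 0.00409). Of the effectors, Tgtp1 was 2.50-fold higher (log2 1.32, SE 0.25, adjusted p = 1.19e-05), Tgtp2 1.98-fold (adjusted p = 0.000183), Iigp1 1.97-fold (adjusted p = 0.00397), Gm12250 1.80-fold (adjusted p = 0.00363) and Ifi47 1.46-fold (adjusted p = 0.000521). 9930111J21Rik1 was 1.66-fold higher (adjusted p = 0.00398), and Gm4951, the weakest call, 1.62-fold (adjusted p = 0.0428). Since each line belongs to 1 class, a difference between classes is also a difference between lines, and this fit does not account for tumors sharing a line. A limma fit with a correlation within lines called 9 members. With counts summed per line, 6 were called, without CC079F1 3, and among the 17 deep libraries 4, while all 10 differences stayed positive in each of these fits.

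By line, the means of log2 values were higher in every R line than in every NR line for 9 of the 10 members. Such a separation was seen in 14.8% of the 12055 genes with a mean of at least 100 normalized counts. The exception was Gm4951, whose mean was higher in CC036F1 (9.59) than in CC002F1 (9.35). The order of the lines was CC001F1, CC075F1, CC002F1, CC036F1, CC080F1, CC079F1 for Irgm1, Irgm2, Igtp, Iigp1 and Gm12250. The gap between the lowest R and the highest NR line was widest for Tgtp1, at 0.69 on the log2 scale, and only 0.04 for Iigp1 and 0.03 for 9930111J21Rik1, less than the spread between tumors of a line.

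In isotype tumors, without any anti-PD-1, the members had a median log2 difference of 0.55 (R minus NR), and 1 of 10 was called, where 2.29% of the 14995 genes tested were called higher. That member was Tgtp1. Its values in the 6 R tumors ran from 1009 to 2655, with a median of 1514, and in the 6 NR tumors from 373.9 to 1223, with a median of 640.0. The highest NR tumor, CC080F1 replicate 1, lay above the lowest R tumor, a CC075F1 tumor, and the other 5 NR tumors lay below all R tumors. The fitted difference was log2 1.23 (SE 0.34, adjusted p = 0.0142). It was not called by edgeR (adjusted p = 0.0756), by limma with a within-line correlation (0.163), among deep libraries (0.495), with counts summed per line (0.185), or without CC001F1 (0.186), CC002F1 (0.0684) or CC079F1 (0.124). With the reads of Tgtp1 and Tgtp2 summed, their difference was log2 0.89 (adjusted p = 0.0431). The median over the members was 0.24 among deep libraries, 0.31 without CC001F1, 0.35 without CC079F1 and 0.37 with counts summed per line.

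The isotype ranges of the other members overlapped between the classes. Igtp ran from 3245 to 5728 (median 3498) in R and from 1612 to 4216 (median 2163) in NR isotype tumors, a log2 difference of 0.59 (SE 0.28, adjusted p = 0.203). Iigp1 ran from 3042 to 8388 (median 4358) against 1338 to 5153 (median 2549), a log2 difference of 0.76 (SE 0.38, adjusted p = 0.238). For 9930111J21Rik1 the R tumors spanned 520.1 to 665.5, and all 6 of them lay below the highest NR tumor, at 684.0. Without the CC080F1 isotype tumor replicate 1, whose Igtp value of 4216 was the highest of the NR isotype group, 7 members were called. That tumor also held the highest sum of T and NK cell markers of its group (1140, against a group median of 206) and the highest Ptprc level (6278, against 3879), and their part in its IRG values was not tested. Without the line CC080F1 it was 5.

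In aPD1 tumors the fitted class differences were larger, and the test of that change, given with the antibody effects, called no member. The members differed by a median log2 of 1.11, from 0.84 for Irgm1 to 1.43 for Tgtp1, and all 10 were called, where 5.94% of the 17156 genes tested were called higher. Igtp ran from 4323 to 10212 (median 6874) in the 6 R tumors. In the 5 NR tumors it was 5912 and 3882 in CC036F1, 2192 and 3705 in CC079F1 and 2415 in CC080F1. The CC036F1 tumor at 5912 lay above 2 R tumors and the other 4 lay below all of them, a 2.00-fold difference (log2 1.00, SE 0.31, adjusted p = 0.0245). Iigp1 ran from 6022 to 14144 (median 8223) in R tumors, and was 7396 and 4702 in CC036F1, 1735 and 3463 in CC079F1 and 2828 in CC080F1. It was again a CC036F1 tumor that overlapped the R range, and the difference was 2.31-fold (log2 1.21, SE 0.40, adjusted p = 0.0332).

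Ifi47, an effector with a smaller spread between tumors, ran from 2566 to 5314 (median 3693) in R aPD1 tumors, and was 2736 and 1834 in CC036F1, 1796 and 2359 in CC079F1 and 2162 in CC080F1 (log2 0.85, SE 0.18, adjusted p = 0.000111). The share of all genes whose aPD1 tumors did not overlap between classes was not counted. Among the members, only for 9930111J21Rik1 did the classes not overlap. Its lowest R aPD1 value was 740.7, and the NR values were 461.6 and 468.3 in CC036F1, 305.1 and 304.6 in CC079F1 and 640.5 in CC080F1 (log2 1.17, SE 0.24, adjusted p = 7.10e-05). For the other 9 members, 1 or 2 of the 5 NR tumors reached the R range. Of these fits, edgeR called 4 members and limma with a within-line correlation 0, although all 10 had an unadjusted p under 0.05 in both. The deep libraries gave 4 calls, leaving out CC079F1 2 and leaving out CC075F1 3.

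The second question was whether the members changed after aPD1. In R hosts all 10 rose, with log2 differences from 0.70 for Ifi47 to 1.04 for Gm12250 and a median of 0.90, and all 10 were called, where 4.85% of the 15701 genes tested were called higher. Irgm1 was 1.70-fold higher with aPD1 (log2 0.76, SE 0.22, adjusted p = 0.0143), Igtp 1.83-fold (log2 0.87, SE 0.23, adjusted p = 0.00722), Iigp1 1.96-fold (log2 0.97, SE 0.24, adjusted p = 0.00438) and Tgtp2 1.90-fold (log2 0.93, SE 0.26, adjusted p = 0.0142). The smallest adjusted p was that of Gm4951 (2.04-fold, log2 1.03, SE 0.18, adjusted p = 1.53e-05). In CC002F1 its isotype tumors held 447.7 and 393.4 normalized counts and its aPD1 tumors 1041 and 991.1. In CC075F1 they held 558.8 and 782.1 against 1786 and 1227, and in CC001F1 746.3 and 1174 against 1041 and 2022. So in CC002F1 and CC075F1 both aPD1 tumors exceeded both isotype tumors, and in CC001F1 1 of 2 did. The calls depended on the tool, since edgeR called no gene of the whole table in R hosts and so 0 members, all 10 of them with an unadjusted p under 0.05. Without CC001F1 aPD1 replicate 2 the count fell to 3, without CC002F1 aPD1 replicate 1 to 4 and without CC002F1 isotype replicate 2 to 6.

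In NR hosts no member was called, where 0.0407% of the 24552 genes tested were called higher. The log2 differences were all positive, from 0.09 for 9930111J21Rik1 to 0.69 for Tgtp1, with a median of 0.44. That median rested on few tumors. It was 0.29 without CC036F1 aPD1 replicate 1, 0.26 without CC079F1 aPD1 replicate 2, 0.66 without CC080F1 aPD1 replicate 1 and 0.07 among deep libraries. None had an unadjusted p under 0.05 in DESeq2, and 6 had one in edgeR, which called 0 after adjustment. The intervals were wide. That of Igtp reached from -0.18 to 1.11 and that of Tgtp1 from -0.09 to 1.47, so both take in the sizes fitted in R hosts. For 9930111J21Rik1 the 95% interval ran from -0.12 to 0.30 and for Ifi47 from -0.12 to 0.39, and the values fitted in R hosts (0.75 and 0.70) lay above these. Without CC080F1 isotype replicate 1, 2 members were called. The antibody effect of R minus that of NR hosts was positive for all 10 members, with a median log2 of 0.49, but called for none, where 0.019% of 26342 genes were called higher. The median was 0.29 without CC080F1 aPD1 replicate 1 and 0.91 among deep libraries. The largest were Gm4951 (0.94, SE 0.36, adjusted p = 0.500), 9930111J21Rik1 (0.68, SE 0.23, adjusted p = 0.422) and Ifi47 (0.57, SE 0.22, adjusted p = 0.500), the 3 with an unadjusted p under 0.05. The same 3 had the smallest differences in NR hosts. edgeR called 0 members as well, the deep libraries gave 1, and without CC001F1 aPD1 replicate 1 it was 3.

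**Figure D3:**
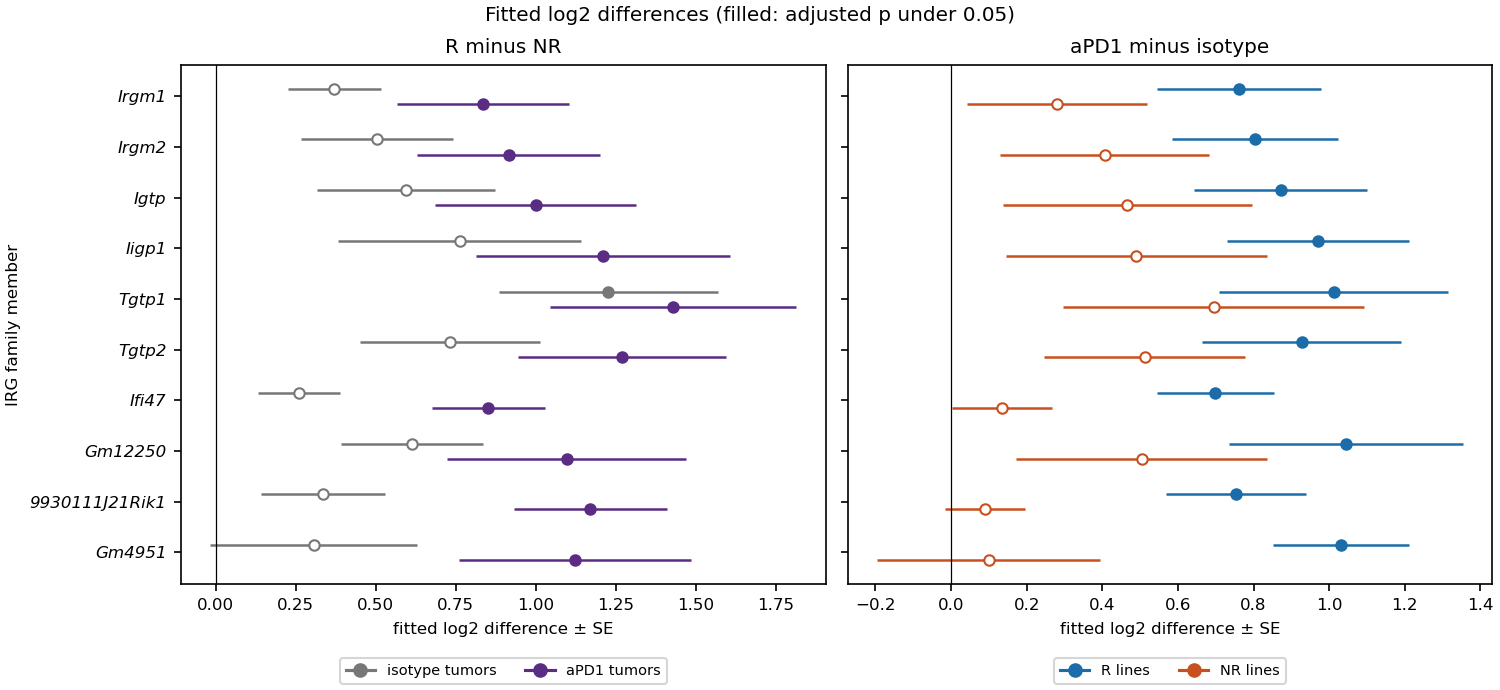
Fitted log2 differences with their SE (horizontal axis) for the 10 members, R minus NR on the left and aPD1 minus isotype on the right; filled points are called (adjusted p under 0.05). The R hosts lie above the NR hosts for every member on the right, from 0.70 to 1.04 against 0.09 to 0.69.

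The size of the antibody difference varied between lines of a class. The mean of log2(normalized count + 1) in aPD1 minus isotype tumors was positive for all 10 members in CC001F1, CC002F1, CC075F1, CC036F1 and CC079F1, and negative for all 10 in CC080F1, which had 1 aPD1 tumor. CC075F1 had the largest difference of all 6 lines for 9 members, such as 1.75 for Tgtp1 and 1.30 for Igtp. For Gm4951 it was CC002F1, at 1.27 against 1.16. In CC001F1 the differences were 0.27 to 0.77. In CC036F1, an NR line, Tgtp1 differed by 1.15, Iigp1 by 0.77 and Igtp by 0.71, more than in CC001F1. In CC080F1 the differences ran from -0.42 for Gm4951 to -0.06 for Gm12250 and 9930111J21Rik1. These differences rest on 1 or 2 tumors per line and antibody and were not tested line by line. For every member except 9930111J21Rik1, the CC080F1 aPD1 tumor lay between the 2 isotype tumors of its line. Its Igtp value was 2415, between 2044 and 4216 in the isotype tumors. The isotype tumor at 4216, replicate 1, had a T and NK cell marker sum of 1140 and a Ptprc level of 6278. The CC080F1 aPD1 tumor stood apart from the other NR aPD1 tumors in cell type markers. Its summed B cell marker level (Cd79a, Ms4a1 and Igkc) was 2778 against a median of 182 in the NR aPD1 group. Its adipocyte marker sum (Adipoq and Plin1) was also the highest of that group, at 228 against a median of 62.7. So were its T and NK cell marker sum (748 against 411), its macrophage marker sum (70481 against 57616) and its Ptprc level (5976 against 4340). The part of these cells in the IRG values of the CC080F1 tumors was not tested. The pair of CC001F1 aPD1 tumors illustrates the spread, with Igtp at 4323 in one and 9618 in the other.

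**Figure D4:**
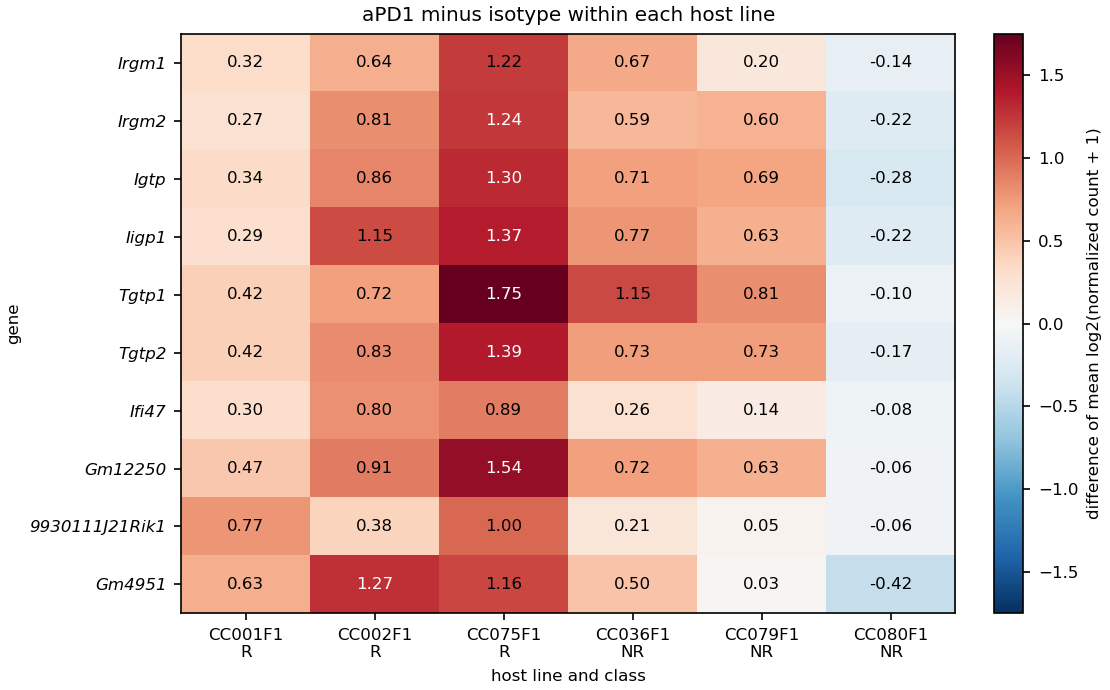
Difference of mean log2(normalized count + 1) between aPD1 and isotype tumors for each member (rows) in each host line (columns, with class). Red is higher with aPD1; the columns of the R lines, CC036F1 and CC079F1 are positive throughout and that of CC080F1 is negative, from -0.06 to -0.42.

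Lines of a class were also compared in level. Among the R lines 1 member was called by the likelihood-ratio test, where 1.05% of 19074 genes were called. It was Gm4951 (adjusted p = 0.0277), with line means of 10.19 in CC001F1, 9.95 in CC075F1 and 9.35 in CC002F1 on the log2 scale. The call was lost in edgeR (adjusted p = 0.410) and without any of 6 tumors of CC001F1 and CC002F1. Among the NR lines 1 of the 10 members was called, near the share of 9.46% called among 16936 genes. This member was 9930111J21Rik1 (adjusted p = 1.02e-14). It held 684.0, 650.4 and 640.5 normalized counts in the 3 CC080F1 tumors, 381.9 to 468.3 in the 4 CC036F1 tumors and 266.5 to 323.1 in the 4 CC079F1 tumors. The 3 lines did not overlap. The adjusted p stayed at or below 0.000103 in every alternative fit in which it was tested as a gene of its own. Its near-identical neighbor 9930111J21Rik2 had the same order, with a line test of adjusted p = 1.21e-09, and the reads of both genes summed gave adjusted p = 1.41e-12. Of the other members none was called among the NR lines. This too depended on few tumors, since without CC080F1 isotype replicate 1 5 members were called, among the deep libraries 7 and in edgeR 4.

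The level of a member relative to the other members was described by line. For each tumor the centred log2 value of a gene was set against the mean of the other members. By this measure the line means of Igtp, Irgm2 and Gm12250 stayed between -0.22 and 0.17. Tgtp1 lay 0.74 (SD 0.47, n = 3) below the family in CC080F1 and 0.41 (SD 0.08, n = 4) above it in CC001F1. 9930111J21Rik1 lay 0.71 above it in CC080F1. Ifi47 lay 0.51 above it in CC079F1, and Iigp1 0.40 below. The values of Tgtp1 carry the uncertainty of reads shared with Tgtp2, which lay 0.11 above the family in CC080F1. A gene that varies less or more than the mean of the members also departs from 0 when the whole family shifts. The relative Irgq, whose own level varied little, stood at 0.98 in CC079F1 and at -0.53 in CC001F1. These values are descriptions, do not by themselves show a change of 1 gene, and were not tested.

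The relatives of the members differed among themselves. Gm12185, whose RefSeq promoter carries the joint motif letters shown above, was set apart by host line. It held 514.4, 737.5, 818.6 and 996.8 normalized counts in the 4 CC079F1 tumors, in which most IRGs were lowest. In the other 7 NR tumors it ran from 108.7 to 224.9 and in the 12 R tumors from 186.5 to 764.1. Relative to the members it stood 2.20 (SD 0.17, n = 4) higher on the log2 scale in CC079F1, and its line test within NR gave an adjusted p of 5.75e-30. Its annotated span (chr11:48904656-48992226) covers that of 9930111J21Rik1 and overlaps that of Tgtp1, while 7.41% of its 100-base stretches occurred in another gene, most often Gm5431 (4.58%). R minus NR it differed by log2 -0.25 (SE 0.38, adjusted p = 0.738). With aPD1 in R hosts it rose (log2 0.86, SE 0.26, adjusted p = 0.0232), as the members did.

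Gm4841 was the relative most like the family mean over the 23 tumors (r = 0.942), with an R minus NR difference of log2 1.28 (SE 0.32, adjusted p = 0.00134). 9930111J21Rik2 was also higher in R tumors (log2 0.70, SE 0.17, adjusted p = 0.00101). F830016B08Rik, Gm5431 and Irgq did not pass the test over both antibodies, with log2 differences of 0.10, 0.39 and -0.07. Irgq is a distant member of the family without known induction by interferon, and with aPD1 in R hosts it differed by log2 0.04 (SE 0.07, adjusted p = 0.823). Its values ran from 700.1 to 1411 over all tumors. Irgc1, a testis gene, was near 0, at 0 to 8.96 normalized counts. In all, 5 of the 7 relatives were called higher with aPD1 in R hosts and 2 were called higher in R tumors over both antibodies. The shares of all genes tested that were called higher were 4.85% and 7.66%.

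**Figure D5:**
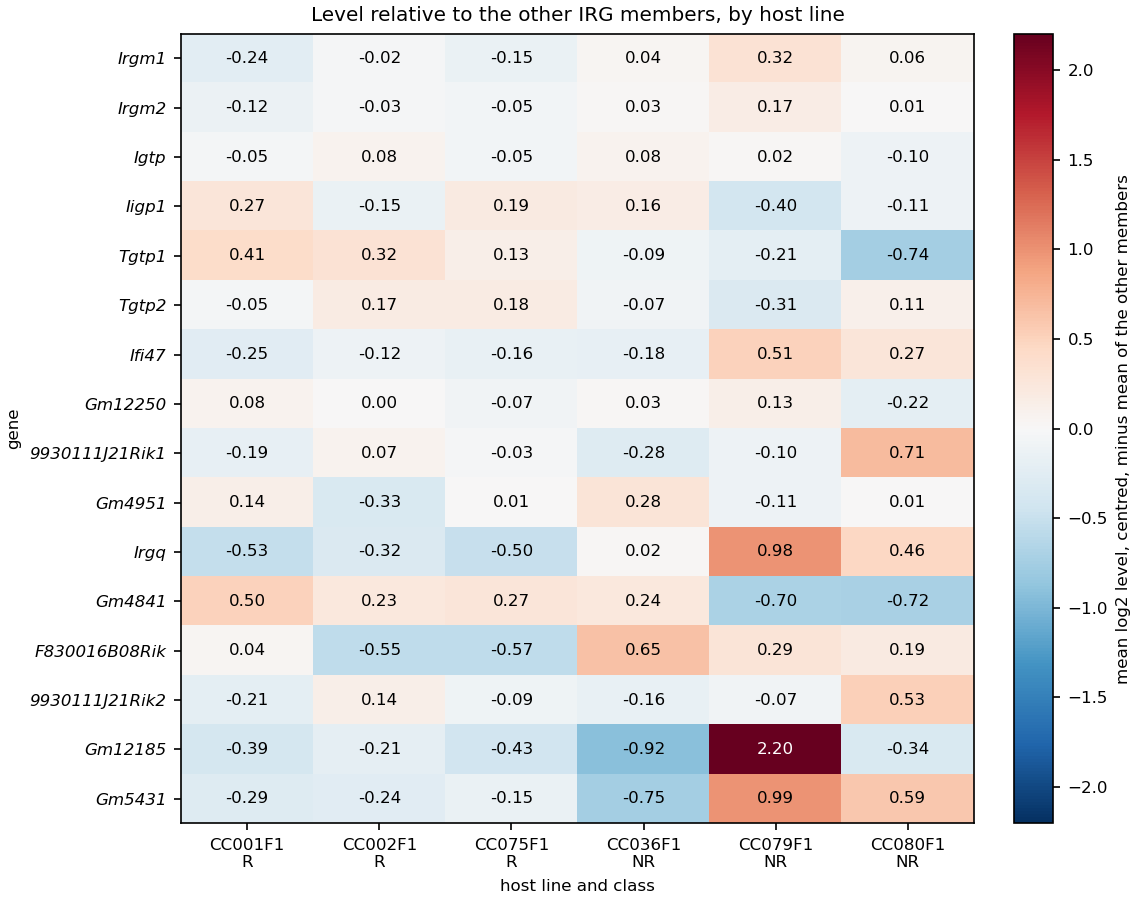
Mean level of each member and of 6 relatives in each host line, on the log2 scale, centred on the gene's mean and relative to the mean of the other members. Values near 0 follow the family; Gm12185 stands at 2.20 in CC079F1, 9930111J21Rik1 at 0.71 and Tgtp1 at -0.74 in CC080F1.

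Other genes of the pathway were taken from lists. Of 13 genes of interferon-gamma signaling, 7 were called higher in R tumors over both antibodies, 6 in aPD1 tumors, 1 in isotype tumors and 9 with aPD1 in R hosts, with median log2 differences of 0.31, 0.48, 0.19 and 0.51. In the same order, the shares of all genes tested that were called higher were 7.66%, 5.94%, 2.29% and 4.85%. Ifng itself, the inducer, ran from 29.5 to 94.4 normalized counts in R isotype and from 50.01 to 289.0, with a median of 147.3, in R aPD1 tumors. In NR tumors it ran from 14.5 to 43.0 with isotype and was 51.2, 38.1, 8.5, 11.2 and 15.9 with aPD1, so that 1 NR aPD1 tumor lay above the lowest R aPD1 tumor. It was the only one of the 13 called in isotype tumors (log2 1.21, SE 0.38, adjusted p = 0.0334), and with aPD1 it rose in R hosts (log2 1.50, SE 0.37, adjusted p = 0.00365). The receptor genes Ifngr1 and Ifngr2 and the kinases Jak1 and Jak2 were not called in any of these comparisons, and their log2 differences stayed between -0.02 and 0.11.

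The guanylate-binding proteins, the larger GTPases induced beside the IRGs, gave counts of 8 of 11 over both antibodies, 9 in aPD1 tumors, 2 in isotype tumors and 10 with aPD1 in R hosts. The shares over all genes are those given beside the interferon-gamma list. Gbp2b and Gbp5 were the pair called in isotype tumors. The type I interferon list, genes such as Isg15, Mx1 and the Ifit family, had calls in the other direction in isotype tumors. There 4 of its 10 genes were called lower in R tumors (Ifit1, Ifit3, Isg15 and Rsad2, with log2 differences of -0.63, -0.77, -0.65 and -0.65) and none higher, where 3.24% of the genes tested were called lower, while all 10 IRG differences were positive. In aPD1 tumors 4 of the 10 were called higher in R tumors and none lower (median log2 0.46), and over both antibodies 1 was called higher (median 0.07). With aPD1 in R hosts all 10 rose, by a median log2 of 0.76, and 7 of them were called. Of the 14 genes for ATG8 conjugation and vacuole targeting, on which IRG loading depends, 1 was called higher with aPD1 in R hosts. There 4.85% of all genes tested were called higher, and the list's median was 0.0079. Atg3, Atg5, Atg7, Atg12 and Atg16l1 had log2 differences between -0.10 and 0.24 there. Ubd, a ubiquitin-like protein induced by interferon-gamma, was called higher in R tumors in both isotype (log2 1.30) and aPD1 tumors (log2 1.62). Over both antibodies and in aPD1 tumors, 1 gene of the ATG8 list was called higher in R tumors and 1 lower.

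Across the 23 tumors the members moved together. Over their 45 pairs Pearson's r of log2 values had a median of 0.934, from 0.718 for Tgtp1 and 9930111J21Rik1 to 0.994 for Irgm2 and Igtp, and all values share the same libraries. Among 12045 other genes with a mean of at least 100 normalized counts, the 5 most like the family mean included Gbp2 (r = 0.976, rho = 0.959), Itgb2 (r = 0.974, rho = 0.973), Hk3 (r = 0.967, rho = 0.941) and Gvin1 (r = 0.962, rho = 0.958). Itgb2 encodes an integrin chain of leukocytes, and Gvin1 another large interferon-inducible GTPase. The R aPD1 tumors held ranks 1 to 8 of 23 by family mean, apart from ranks taken by a CC001F1 isotype and a CC036F1 aPD1 tumor, and the NR isotype tumors ranks 10 to 23.

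Markers of other cell types moved with the same groups. The sum of 4 T and NK cell markers (Cd3e, Cd8a, Cd8b1 and Nkg7) ran from 556 to 1441 (median 1061) in R and from 147 to 1140 (median 206) in NR isotype tumors, and from 665 to 2909 (median 1473) in R and 279 to 748 (median 411) in NR aPD1 tumors. All 4 markers were called higher in R tumors over both antibodies and in aPD1 tumors, and 1 in isotype tumors. With aPD1 within R hosts none was called, although all 4 log2 differences were positive, from 0.62 to 0.83. Ptprc, which marks all leukocytes, ran from 5371 to 6302 and from 2447 to 6278 normalized counts in R and NR isotype tumors, and from 5651 to 13888 and from 3099 to 5976 with aPD1. It was called higher in R tumors over both antibodies (log2 0.77), in isotype tumors (log2 0.53) and in aPD1 tumors (log2 1.03). With aPD1 within R hosts its difference was positive (log2 0.58) but not called. The median log2 differences of the members in these class comparisons were 0.76, 0.55 and 1.11, and with aPD1 within R hosts 0.90. Of 4 macrophage markers (Adgre1, Apoe, Lyz2 and Cd68), 2 were called higher with aPD1 in R hosts and 2 in R tumors over both antibodies. Their summed range overlapped between classes, at 37361 to 90465 and 36073 to 80582 in R and NR isotype tumors and, less so, at 67144 to 123443 (median 75721) and 46832 to 70481 (median 57616) in R and NR aPD1 tumors. The part of these cells in the IRG differences was not tested. The MC38 marker Shisal2b ran from 460 to 1133 in R and from 563 to 1138 in NR isotype tumors, and was not called in a class comparison. The sum of 5 skeletal muscle markers ran from 18.8 to 19465 in R and from 12.7 to 271 in NR aPD1 tumors, and 4 of the 5 were called higher in R aPD1 tumors. In isotype tumors it reached 8340 in an R tumor (CC001F1 replicate 1) and 7452 in an NR tumor (CC080F1 replicate 2). The R aPD1 tumor at 19465, CC001F1 replicate 1, had the lowest value of its group for 8 of the 10 members. The 3 B cell markers were called lower in R than in NR aPD1 tumors, with a summed level of 30.8 to 163 in R and 78.4 to 2778 in NR tumors, and 1 of the 2 adipocyte markers was called lower as well. The part of muscle, B cells and fat in the IRG differences was not tested.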

How the data were processed

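RNA of 23 MC38 tumors was sequenced as poly(A) libraries with paired reads. Per the labels and the study's methods, the authors aligned reads with Bowtie (version 1.2.3) to transcriptomes built for the founder strains and estimated expression with gbrs on GRCm38. The deposited values are expected counts per gene, not normalized, of which 16.95% are not whole, and they were rounded to whole counts here. Groups came from the labels, and the classes R and NR from the study's text. Tumors of 1 line were treated as replicates, so p-values measure the spread between tumors.

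Fits used DESeq2 1.42.0 (Wald test, or likelihood-ratio test between lines) on genes with at least 5 summed counts, with p-values adjusted over all genes and called under 0.05. edgeR 4.0.16 (quasi-likelihood) and limma 3.58.1 (voom, line as a random effect) in R 4.3.3 were alternatives, as were other filters, TMM scaling, the deep libraries, counts summed per line, near-identical genes summed, a replicate block and leaving out each tumor or line. Tables and plots used numpy 2.4.6, pandas 2.3.3 and matplotlib 3.10.9. All 10 members and 7 relatives were named whatever their values, and other genes by list. For likeness, the rule was to name the 5 genes with the highest correlation, and 1 gene is not reported here. The members and lists were chosen with earlier results of these data known. Lengths and positions are from GENCODE vM21, in which 26681 of the 26869 genes were named, and promoters from RefSeq GRCm38.p6. Library totals ran from 14494014 to 71868253 counts, with a median of 42327589.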

Additional observations from a re-analysis of the deposited data

How the results depend on the processing

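Of 195 counts of called members recomputed under the alternatives, 146 stayed within 1.5 times the value reported, 35 were lower and 14 higher. Of 1942 values of single genes, 1706 kept their direction and side of the threshold, 188 lost a call, 42 gained one and 6 changed sign. Other filters and TMM scaling left every count of called members as it was. All 6 sign changes were of Gm4951, in comparisons in which it was not called. They were R minus NR in isotype tumors among deep libraries (-0.12) and without CC001F1 (-0.019, in a range of -0.01884 to 0.559 without 1 line), and the antibody effect in NR hosts among deep libraries (-0.22), without CC036F1 isotype replicate 1 (-0.042), without CC036F1 aPD1 replicate 1 (-0.068) and without CC079F1 aPD1 replicate 2 (-0.030), in a range of -0.06824 to 0.2885 without 1 tumor.

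Over both antibodies 10 members were called in R minus NR, against 4 among deep libraries and 6 with counts summed per line, 9 to 10 without 1 tumor and 3 to 10 without 1 line. In isotype tumors 1 was called, against 0 in edgeR, where 8 had an unadjusted p under 0.05, 0 among deep libraries (0 unadjusted), 0 in limma with a within-line correlation (5 unadjusted) and 0 with counts summed per line (2 unadjusted). It was 1 to 7 without 1 tumor, 2 of them without CC075F1 isotype replicate 2, and 0 to 5 without 1 line. In aPD1 tumors 10 were called, against 4 in edgeR, 4 among deep libraries and 0 in limma, 4 to 10 without 1 tumor and 2 to 10 without 1 line. The 4 calls were those without CC001F1 aPD1 replicate 2, CC075F1 aPD1 replicate 1, CC079F1 aPD1 replicate 2 or CC080F1 aPD1 replicate 1. Leaving out CC079F1 aPD1 replicate 1, or else CC036F1 aPD1 replicate 2, gave 5, and CC075F1 aPD1 replicate 2 gave 6. For aPD1 against isotype, 10 were called in R hosts, against 0 in edgeR and 3 to 10 without 1 tumor, and 0 in NR hosts, with 0 to 2 without 1 tumor. The difference between the antibody effects gave 1 call among deep libraries and 0 to 3 without 1 tumor. Between R lines edgeR called 0 (2 unadjusted), and 0 to 6 were called without 1 tumor, 6 of them without CC001F1 aPD1 replicate 1. Between NR lines edgeR called 4 and the deep libraries 7, with 1 to 5 without 1 tumor. The causes of these changes were not tested.

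The main fits did not pair tumors by replicate number. The correlation of deviations of the isotype and aPD1 tumors with the same number ran from -0.20 to 0.37 over 5 lines. With a single value per line, this cannot settle whether the numbers pair tumors. With the replicate block 6 members were called in aPD1 tumors in place of 10, 9 over both antibodies and 10 for the antibody in R hosts. The within-line correlation fitted by limma was 0.0152 over both antibodies, 0.0622 in isotype and 0.099 in aPD1 tumors. The shallow libraries, 2 R and 4 NR, were too few to compare on their own.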
